A study of Homo sapiens with 480 samples.

Results

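Single cells of the T cell line Jurkat and of its clone J-Lat A2 were compared after both had been exposed to the same agent, the phorbol ester PMA. All cells had 1 ug/mL PMA for 24 h and were sorted into plates P2769, P2770 and P2771, each of which held both lines. A well was kept if its total came to 0.1 of its plate's median or more and reads fell on 500 genes or more. This kept 79 of 81 J-Lat A2 wells (26, 27 and 26 by plate) and 36 of 36 Jurkat wells (12 on each plate), out of 480 wells in the whole study. Counts were summed per line and plate, which gave 3 sums for each line, and the lines were compared within plates. Genes of the Y chromosome were left out.

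Jurkat is a human T cell leukaemia line. J-Lat A2 was derived from it as a single clone with an integrated HIV construct that holds the viral long terminal repeat, Tat and a fluorescent reporter, so the clone and the construct cannot be told apart as the source of a difference. The remaining wells of the same plates held both lines with 0.1% v/v DMSO (35 J-Lat A2 and 18 Jurkat cells kept) or with 1 uM SAHA, a histone deacetylase inhibitor (68 and 36 cells kept). The labels do not say that the plates were separate cultures, so p-values measure the spread between plates, which may be technical. On each plate the PMA wells of the lines lay in separate rows of library indexes, so for the comparison under PMA index row and line cannot be told apart.

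PMA mimics diacylglycerol and switches on protein kinase C. In T cells this starts the ERK and NF-kB pathways, which induce early activation genes such as CD69 and, in latently infected cells, drive transcription from the viral long terminal repeat. Because both lines had PMA, the comparison leaves the response they share aside and asks where a clone with a latent construct differs from its parent line once both are stimulated.

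Depth per cell was similar, with a median total of 474569 counts in J-Lat A2 and 526565 in Jurkat cells, whereas the median number of genes with a count was 4484 against 5521. The sums held 11231349 to 13663433 counts for J-Lat A2 and 5865982 to 6996471 for Jurkat. A floor of 3 counts therefore corresponds to 0.220 to 0.267 CPM, counts scaled to a common library size, in the first and 0.429 to 0.511 CPM in the second. The median mitochondrial share was 3.96% and 3.67%. Of 12 T cell and Jurkat markers 11 had reads in each line, with a summed level of 8257 to 9408 CPM in J-Lat A2 and 8127 to 8481 CPM in Jurkat, and CD4 was at 0 in both. Of the 9 myeloid markers 6 were at 0 in J-Lat A2 and 8 in Jurkat. Their summed level was 3.59 to 409 CPM and 0.308 to 5.29 CPM. Erythroid markers were at 0 in both lines. B cell markers summed to 41.3 to 111.5 CPM in J-Lat A2 and 31.7 to 74.3 CPM in Jurkat, with CD79A the highest in both. NK cell markers summed to 8.57 to 18.3 CPM and 1.14 to 8.35 CPM, with NKG7 the highest. The part of the lower number of genes per cell in the results was not tested.

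HIVmini, the feature that counts reads of the construct, checks the labels. After TMM scaling its level in J-Lat A2 was 6723, 4654 and 6873 CPM on plates P2769, P2770 and P2771, and in Jurkat 0, 0 and 0.162 CPM, the last from 1 read. The ratio of summed counts was 118200 with a 95% counting interval of 21220 to 4670000. The fitted log2 difference was 16.53 ± 0.29 (SE, adjusted p = 1.34e-06, edgeR quasi-likelihood test). This SE is the size of the log2 difference divided by the square root of the F statistic. It does not cover the counting error of the 1 Jurkat read, and without plate P2771 the log2 difference was 18.71. By plate, 16 of 26, 20 of 27 and 19 of 26 J-Lat A2 cells had a read, against 1 of all 36 Jurkat cells. Every plate of J-Lat A2 therefore lay above every plate of Jurkat, while part of the J-Lat A2 cells on each plate had no read of the construct.

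In total 60 of 10259 genes tested were called at an adjusted p under 0.05 (0.585% of all genes tested), 33 higher in J-Lat A2 (0.322%) and 27 lower (0.263%). At an unadjusted p under 0.05 there were 1006 genes, 570 higher and 436 lower. DESeq2 called 309 of the 10259 genes higher and 236 lower. The sums of the 2 lines did not overlap for 1608 of all genes tested and for 55 of the 60 called genes. Lack of overlap is thus no further evidence for a called gene. The median log2 difference of all genes was 0.06. The called genes included MAGEA4 and GTSF1, nearly absent from Jurkat, 4 CD1 genes and TRAC, lower in J-Lat A2, and ASNS and WARS1, higher in J-Lat A2. All log2 differences are J-Lat A2 minus Jurkat, with a standard error derived from the F statistic as for HIVmini. For genes with few counts in 1 line it understates the uncertainty. All adjusted p-values are from edgeR with Benjamini-Hochberg adjustment over all genes tested unless another tool is named.

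The direction of each difference held in the alternatives, whereas the number of calls did not. All 60 called genes kept their sign in each of 11 alternative analyses, and 12 stayed called in all of them: ADA, ASNS, CD1E, FYB1, GTSF1, HIVmini, MAGEA4, MYO7B, PUDP, RBM48, RCBTB2 and WARS1. The alternatives reuse the wells that gave the calls, so the kept signs are no independent support. Without plate P2769, 27 of the 60 stayed called, without plate P2770 all 60, and without plate P2771 21. In the fit of all 18 sums, described further on, 29 of the 60 stayed called, and TRAC (adjusted p = 0.551), CD69 (adjusted p = 0.946), CD1C (adjusted p = 0.357), CD2 (adjusted p = 0.215), CD1A (adjusted p = 0.155), CD1B (adjusted p = 0.0604) and CD40LG (adjusted p = 0.0554) were not. ACTB and ACTG1, PTMA, FTH1, RPLP1, TMSB4X, PRSS2 and MAGEA4 have near-identical relatives or processed copies, and their counts are uncertain to that extent.

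**Figure D1:**
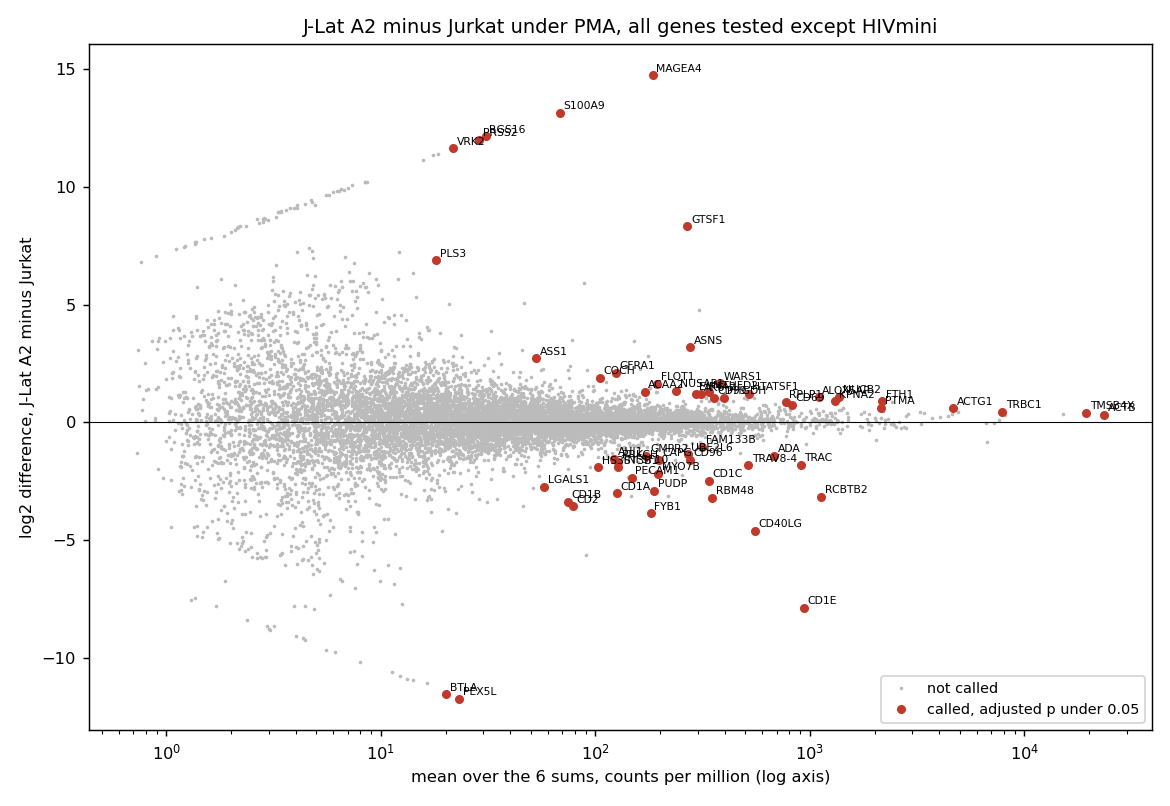
Log2 difference between J-Lat A2 and Jurkat under PMA (vertical axis) against the mean level over the 6 sums in CPM (horizontal log axis), 1 point per gene tested except HIVmini. Red points are the 59 other called genes; the points along the upper and lower diagonal edges have no count in 1 line, where the fitted difference depends on the prior count and is no measured fold.

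The clearest of the higher genes were germ line genes. MAGEA4 is a member of the MAGE-A family on the X chromosome, and GTSF1 acts with the PIWI proteins that silence transposons in the germ line. MAGE-A genes are a textbook case of genes held silent in somatic cells by methylation of CpG dinucleotides near the start. The 250 bases before each start, with CG in capitals, are shown because these genes differ most nearly as on against off. MAGEA4 has 5 annotated starts in the RefSeq table, of which the first listed is shown.

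MAGEA4, chrX:151912224-151912473, plus strand, GRCh38.p14: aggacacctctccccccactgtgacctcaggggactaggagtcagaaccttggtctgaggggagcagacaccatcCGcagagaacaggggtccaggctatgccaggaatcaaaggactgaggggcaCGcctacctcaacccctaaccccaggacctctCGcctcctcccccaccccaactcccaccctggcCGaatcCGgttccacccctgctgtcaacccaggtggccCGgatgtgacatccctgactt
GTSF1, chr12:54473603-54473852, minus strand, GRCh38.p14: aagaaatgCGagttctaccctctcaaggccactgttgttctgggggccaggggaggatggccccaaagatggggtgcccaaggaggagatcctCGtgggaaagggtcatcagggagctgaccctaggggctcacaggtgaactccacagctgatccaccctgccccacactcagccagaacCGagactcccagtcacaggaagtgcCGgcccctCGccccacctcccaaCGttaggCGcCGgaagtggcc

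The MAGEA4 window holds 6 CG and the GTSF1 window 8, against a median of 11 over 35116 such windows in the RefSeq table. Methylation was not measured, and the windows are given as a description.

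MAGEA4 (ENSG00000147381.12, chromosome X, 151912509 to 151925170, GRCh38) measured 496, 281 and 333 CPM on the plates of J-Lat A2 and had no count in any Jurkat cell. It was at least 2385-fold higher in J-Lat A2 (floor of 3 counts over the group, adjusted p = 0.00137, edgeR), with reads in 42 of 79 cells. GTSF1 (ENSG00000170627.11, chromosome 12, 54455950 to 54473602) measured 586, 555 and 462 CPM against 0, 7.27 and 0 CPM. Its log2 difference was 8.33 ± 1.01 (adjusted p = 0.0318), and 15.15 without plate P2770, the 1 plate with Jurkat counts. GTSF1 had reads in 79 of 79 J-Lat A2 cells and in 3 of 36 Jurkat cells. Thus GTSF1 was found in every J-Lat A2 cell kept, while MAGEA4 was found in only part of them.

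Other genes without a count in Jurkat were rarer among the cells. VRK2, a serine/threonine kinase, measured 25.3, 66.6 and 38.2 CPM in J-Lat A2, at least 299-fold above Jurkat, and was read in 29 cells. RGS16, a regulator of G protein signalling, measured 17.1, 118.8 and 48.99 CPM, at least 438-fold above Jurkat, and was read in 18 cells. All 3 plates of J-Lat A2 lay above Jurkat for both genes. PRSS2, an anionic trypsinogen whose gene lies within the T cell receptor beta locus, measured 150, 12.8 and 9.46 CPM, but 84.8% of its counts came from 1 cell. S100A9, a myeloid calcium-binding protein, measured 6.23, 2.61 and 401 CPM, and 97.6% of its counts came from 1 cell, so its level in the myeloid marker sum rests on that cell. PLS3, an actin-bundling protein, measured 46.4, 46.97 and 14.1 CPM against 0.592, 0.146 and 0.162 CPM (log2 difference 6.87 ± 0.91, adjusted p = 0.0384).

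In the other direction 2 genes were without a read in all J-Lat A2 cells kept. PEX5L, a relative of the peroxisomal import receptor, measured 39.7, 48.7 and 50.7 CPM in Jurkat and was at least 550-fold lower in J-Lat A2 (adjusted p = 0.0384), with reads in 23 Jurkat cells. BTLA, an inhibitory receptor of lymphocytes, measured 39.97, 43.5 and 37.6 CPM in Jurkat and was at least 481-fold lower (adjusted p = 0.043), from 12 Jurkat cells.

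**Figure D2:**
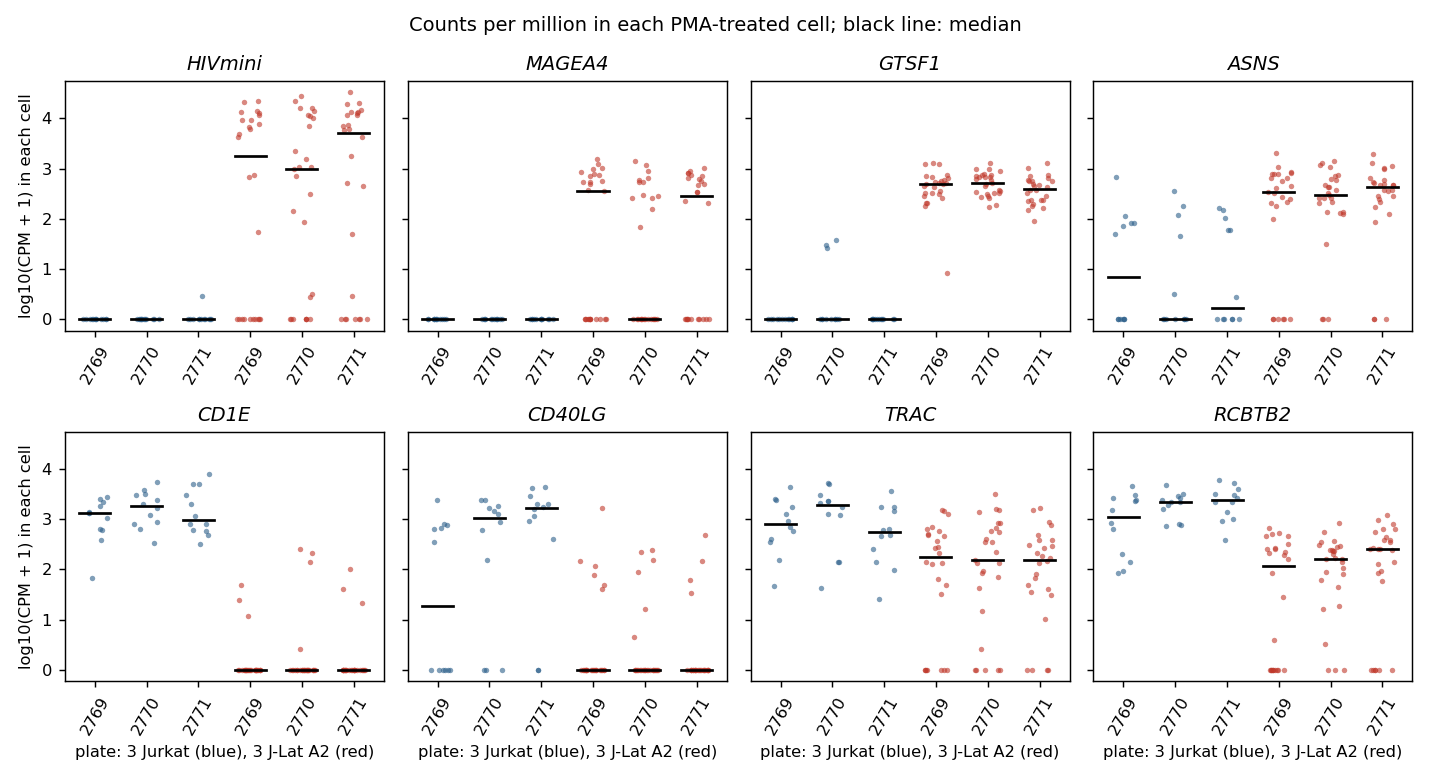
Level of 8 genes in each kept cell as log10(CPM + 1), by plate, with Jurkat in blue and J-Lat A2 in red and the median as a black line. GTSF1 has reads in 79 of 79 J-Lat A2 cells and CD1E in 36 of 36 Jurkat cells, whereas HIVmini and MAGEA4 split the J-Lat A2 cells into cells with and without reads.

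CD1 molecules present lipid antigens to T cells, and CD1A, CD1B, CD1C and CD1E are markers of immature cortical thymocytes, the stage that many T cell leukaemias resemble. All 4 were lower in J-Lat A2. CD1E (ENSG00000158488.16, chromosome 1, 158353696 to 158357553) measured 4.06, 15.9 and 6.63 CPM in J-Lat A2 against 1393, 1980 and 2214 CPM in Jurkat. The log2 difference was -7.87 ± 0.36 (adjusted p = 0.000356), and the gene had reads in 10 of 79 cells against 36 of 36. CD1B measured 10.8, 17.4 and 10.4 CPM against 113.1, 97.8 and 195.9 CPM (-3.37 ± 0.41, adjusted p = 0.0318). CD1A measured 24.9, 37.6 and 20.9 CPM against 165.2, 218 and 289 CPM (-3.01 ± 0.31, adjusted p = 0.017), and CD1C 100.5, 111.3 and 89.8 CPM against 422, 597 and 714.4 CPM (-2.49 ± 0.21, adjusted p = 0.00556). For each of the 4 genes the highest J-Lat A2 plate lay below the lowest Jurkat plate. The 4 genes are neighbours on chromosome 1, and the fifth gene of the cluster, CD1D, did not pass (log2 difference -0.83 ± 0.75). IFI16, a DNA sensor on the same arm within 1 Mb, stood at -0.73 ± 0.15 and did not pass either (adjusted p = 0.122).

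These 4 genes are part of a list of lymphoid precursor and leukaemia genes, of which 24 of 32 were tested, 5 were called lower and 1 higher. The called share was 25%, beside 0.585% of all genes tested. The fifth lower member was ADA, adenosine deaminase, which clears deoxyadenosine from lymphocytes. ADA measured 409, 318 and 385 CPM against 960, 1117 and 893 CPM (-1.42 ± 0.16, adjusted p = 0.0208), without overlap. The higher member was CD99, a surface glycoprotein of thymocytes, with 545, 449 and 446 CPM against 214, 238 and 242 CPM (1.05 ± 0.16, adjusted p = 0.0491). The median of the list was -0.40, beside 0.06 for all genes, and -0.01 in the fit without plate P2769. By plate, medians of log2(CPM + 1) differences were -0.39, -0.14 and -0.12, so the list leaned lower mainly on plate P2769. IGLL1, part of the surrogate light chain of B cell precursors, stood at 3.07 (adjusted p = 0.179) and the transcription factor LEF1 at 0.61 (adjusted p = 0.211).

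Among T cell receptor genes the 2 chains differed in opposite directions. TRAC, the constant region of the alpha chain, measured 410, 474 and 298 CPM in J-Lat A2 against 1411, 1923 and 909 CPM in Jurkat (-1.80 ± 0.12, adjusted p = 0.0025). The variable segment TRAV8-4 differed by as much, with 231, 267 and 167.7 CPM against 789, 1084 and 552 CPM (-1.84 ± 0.13, adjusted p = 0.00303). Reads of each were found in 63 of 79 J-Lat A2 cells and in all 36 Jurkat cells. TRBC1, a constant region of the beta chain, was higher, at 10329, 7858 and 9010 CPM against 7184, 5953 and 6839 CPM (0.44 ± 0.06, adjusted p = 0.0389), again with no overlap. The beta segment TRBV12-3 stood at 0.37 ± 0.07 and did not pass (adjusted p = 0.122). TRBC1 and TRBC2 are near-identical copies, so reads may be split between them. TRBC1 stayed called in 7 of the 11 alternative analyses and was lost in the fit of all 18 sums. Its difference had the opposite sign under DMSO and under SAHA.

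CD2, an adhesion receptor that costimulates T cells, measured 16.6, 11.03 and 8.84 CPM against 161.5, 179.1 and 94.2 CPM (-3.57 ± 0.31, adjusted p = 0.00638). The CD3 subunits did not pass, with CD3G at -0.57 ± 0.15, CD3D at 0.08 ± 0.10 and CD3E at 0.12 ± 0.21. Of the 39 tested genes of the receptor complex and its signalling, edgeR called 3 lower and 1 higher (10.3%, beside 0.585% of all genes tested). DESeq2 called 12 lower and 3 higher, beside 236 lower and 309 higher of all 10259 genes tested. The median of the list was -0.51, with 28 of the 39 not above 0. By plate it was -0.67, -0.30 and -0.30, so the list lay below 0 on each.

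The remaining lower genes of the surface and its signalling followed no list as a whole. CD40LG, the CD40 ligand that activated helper T cells display to B cells, measured 65.6, 30.0 and 31.9 CPM against 500, 1019 and 1673 CPM (-4.60 ± 0.55, adjusted p = 0.03). It had reads in 16 of 79 J-Lat A2 and 25 of 36 Jurkat cells. FYB1, an adaptor between the T cell receptor and integrins, measured 16.3, 41.8 and 15.7 CPM against 222, 419 and 369 CPM (-3.87 ± 0.29, adjusted p = 0.0034). Both genes had all J-Lat A2 plates far below all Jurkat plates. PECAM1, an adhesion molecule, differed by -2.36 ± 0.34, LGALS1, the lectin galectin 1, by -2.74 ± 0.34, CD96, a receptor for nectin-like ligands, by -1.59 ± 0.23 and TNFSF10, the death ligand TRAIL, by -1.90 ± 0.28. LGALS1 was the 1 called member of 23 tested trafficking and adhesion genes (4.35%, beside 0.585% of all genes tested).

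Among the targets of PMA itself, PRKCH, the eta isoform of protein kinase C, measured 47.7, 84.9 and 52.3 CPM in J-Lat A2 against 141.7, 229 and 212 CPM in Jurkat (-1.68 ± 0.22, adjusted p = 0.0384). It was the 1 called member of 18 tested protein kinase C and diacylglycerol genes (5.56%, beside 0.585% of all genes tested). The median of that list was 0.00, -0.48 without plate P2770 and 0.37 without plate P2771. Of the 16 tested immediate early and activation genes CD40LG was lower and CD69, a lectin on newly activated lymphocytes, was higher. The called share was 12.5%, beside 0.585% of all genes tested. CD69 measured 1226, 919 and 948 CPM against 705.3, 562 and 575 CPM (0.74 ± 0.11, adjusted p = 0.043). The groups did not overlap, although the median per cell was 519 CPM in J-Lat A2 and 496 CPM in Jurkat. The transcription factor EGR1 stood at 1.94 ± 0.43 and did not pass (adjusted p = 0.161). No gene passed among 12 ERK feedback and 13 NF-kB genes in edgeR. The ERK feedback median was -0.40, and by plate -0.03, -0.50 and -0.40. For the NF-kB list it was 0.71 with 9 of 13 above 0, but by plate 1.23, 0.31 and -0.84, so its sign varied. At an unadjusted p under 0.05, 1 ERK feedback gene was lower and 1 NF-kB gene was higher. DESeq2 called 1 ERK feedback gene lower and 0 NF-kB genes, beside 309 higher and 236 lower of all 10259 genes tested.

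Among the genes called higher, 5 act in amino acid synthesis, tRNA charging or folate metabolism, a grouping made after their values were seen. ASNS, asparagine synthetase (ENSG00000070669.17, chromosome 7, 97852118 to 97872542), measured 521.3, 460 and 509 CPM in J-Lat A2 against 75.4, 53.8 and 39.9 CPM in Jurkat (3.18 ± 0.22, adjusted p = 0.0025). Reads were found in 67 of 79 and 17 of 36 cells. ASS1, argininosuccinate synthase, which makes the precursor of arginine, measured 107.4, 82.3 and 83.9 CPM against 16.6, 9.17 and 17.3 CPM (2.71 ± 0.37, adjusted p = 0.0403). WARS1, the tryptophanyl-tRNA synthetase, measured 576, 591 and 577 CPM against 185.9, 174.4 and 191.9 CPM (1.66 ± 0.14, adjusted p = 0.00547). For these 3 genes every J-Lat A2 plate lay above every Jurkat plate, and WARS1 varied little between plates. MTHFD2, a mitochondrial folate enzyme, measured 481, 469 and 490 CPM against 222, 191.2 and 183.6 CPM (1.28 ± 0.14, adjusted p = 0.0227). PHGDH, the first enzyme of serine synthesis, measured 504.7, 483 and 614 CPM against 234, 280 and 262 CPM (1.04 ± 0.15, adjusted p = 0.043).

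ATF4 is the transcription factor through which cells raise such genes when amino acids are short, and ASNS carries a known ATF4 response element upstream of its start. The 30 bases around it are shown, with the letters TGATGAAA in capitals, starting 68 bases before a RefSeq start.

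ASNS, chr7:97872458-97872487, minus strand, GRCh38.p14: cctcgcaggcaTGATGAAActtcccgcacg

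The search was for TGATGNAA on both strands of the 250 bases before each start, and 3.14% of the 35116 windows hold it. Of 10 amino acid and unfolded protein stress genes looked up, 2 had it in a window, ASNS and CHAC1, a glutathione-degrading enzyme. Among the 48 called human genes with a window, 2 had it. Both counts are per gene, and a gene can have several windows, so they cannot be set directly against the share of windows. Enrichment of the letters was not tested. A match is a description of letters and not of binding.

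ATF4 itself measured 305, 302 and 414 CPM in J-Lat A2 against 263, 292 and 276 CPM and did not pass (0.28 ± 0.16, adjusted p = 0.657). Among other genes of heat shock and unfolded protein stress, PSAT1 of serine synthesis stood at 1.18 ± 0.18 (adjusted p = 0.0501), the pseudokinase TRIB3 at 2.80 ± 0.64 (adjusted p = 0.169), the transcription factor DDIT3 at 2.44 ± 0.61 (adjusted p = 0.208) and the chaperone HSPA5 at 0.83 ± 0.20 (adjusted p = 0.192), and none of these 4 passed. Of the 22 tested genes of this list, ASNS and PHGDH were called (9.09%, beside 0.585% of all genes tested). At an unadjusted p under 0.05, 12 were higher, while DESeq2 called 10 higher. Of all 10259 genes tested, 570 were higher at that unadjusted p and DESeq2 called 309 higher. The median was 0.78 with 20 of 22 above 0, beside 0.06 for all genes. By plate the median of log2(CPM + 1) differences was 0.46, 0.47 and 0.95, above 0 on each. The fitted median was 0.55 without plate P2771, and 0.31 under DMSO and 0.15 under SAHA. By plate it was 0.65, 0.14 and -0.11 under DMSO and -0.04, 0.09 and 0.13 under SAHA, so its sign varied there. The members called, ASNS and PHGDH, are enzymes of amino acid synthesis. Among the chaperones of the list, none of which passed, HSP90B1 stood at 1.02 ± 0.30, HSPA9 at 0.74 ± 0.17, HSP90AA1 at 0.58 ± 0.12, HSPA8 at 0.16 ± 0.12 and HSPD1 at -0.07 ± 0.12.

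Of the cell division and sterol lists 1 gene was called. NUSAP1, a spindle protein, was the 1 called of 52 tested G2 and M phase genes, with 328, 317 and 371 CPM against a mean of 137.8 ± 39.5 CPM (SD, n = 3) in Jurkat, without overlap (1.34 ± 0.20, adjusted p = 0.0491). The called share of this list was 1.92%, beside 0.585% of all genes tested. The list had a median of 0.51 with 45 of 52 above 0, and 15 were higher at an unadjusted p under 0.05, with 9 called higher by DESeq2. By plate its median was 0.21, 0.40 and 1.01, so plate P2771 stood apart, and without that plate the fitted median was 0.29. Of 22 cholesterol synthesis genes none passed in edgeR, while 13 were lower at an unadjusted p under 0.05 (5 were called lower by DESeq2). Of all 10259 genes tested, 570 were higher and 436 lower at that unadjusted p, and DESeq2 called 309 higher and 236 lower. The cholesterol list had a median of -0.52 with 4 of 22 above 0, and by plate -0.48, -0.59 and -0.59. FDFT1, squalene synthase, measured 1733, 1277 and 1556 CPM against 2327, 2746 and 2496 CPM without overlap (-0.74 ± 0.13, adjusted p = 0.0907). FDPS, farnesyl diphosphate synthase, stood at -0.44 ± 0.18 (adjusted p = 0.506). The fitted median of G2 and M phase genes was -0.29 under DMSO and -0.25 under SAHA, and that of cholesterol genes -0.59 and 0.18. By plate, G2 and M phase medians were -0.02, -0.02 and -0.47 under DMSO and -0.11, -0.325 and -0.47 under SAHA. Cholesterol medians were -0.71, -0.67 and -0.51 under DMSO and 0.295, 0.41 and 0.08 under SAHA. Each list thus had the opposite sign under SAHA, while the G2 and M phase value under DMSO rested mainly on plate P2771. Differences of list medians between agents were not tested.

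The other lists of cell growth and interferon response held no called gene in edgeR, while DESeq2 called 4 S phase genes, 3 interferon-stimulated genes, 4 glycolysis genes, 1 ribosome biogenesis gene, 4 mitochondrially encoded genes and 0 apoptosis regulators. Of all 10259 genes tested, DESeq2 called 309 higher and 236 lower. At an unadjusted p under 0.05 in edgeR, 570 of all genes were higher and 436 lower. Medians were 0.26 for 42 S phase genes (6 higher and 0 lower at an unadjusted p under 0.05), 0.17 for 29 interferon-stimulated genes (3 higher, 5 lower), 0.06 for 22 apoptosis regulators (1 higher, 0 lower), -0.06 for 22 glycolysis genes (3 higher, 2 lower), 0.08 for 29 ribosome biogenesis genes (1 higher, 1 lower) and -0.04 for 13 mitochondrially encoded genes (4 higher, 2 lower). The S phase median rested on single plates: by plate it was 0.39, 0.70 and -0.20, and in the fit it was -0.09 without plate P2770 and 0.49 without plate P2771. The median of the interferon-stimulated genes was -0.01 without plate P2771, that of the apoptosis regulators 0.28 without plate P2769, that of the glycolysis genes -0.18 without plate P2770, that of the ribosome biogenesis genes -0.01 without plate P2769 and -0.02 without plate P2770, and that of the mitochondrially encoded genes -0.12 without plate P2771.

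The remaining called genes belonged to no list. Higher in J-Lat A2 were GFRA1, the receptor of the neurotrophic factor GDNF, with 200.1, 214 and 185.6 CPM against 26.1, 66.5 and 57.5 CPM (2.09 ± 0.31, adjusted p = 0.0491), and FLOT1, a scaffold of membrane microdomains, with 330, 257 and 291 CPM against 76.1, 98.4 and 112.1 CPM (1.62 ± 0.22, adjusted p = 0.0384). COCH, cochlin, differed by 1.88 ± 0.28, ACAA2, a thiolase of fatty acid oxidation, by 1.29 ± 0.18, EIF4A2, an RNA helicase of translation initiation, by 1.22 ± 0.18, AK6, an adenylate kinase, by 1.19 ± 0.15, and NUCB2, a calcium-binding protein, by 1.07 ± 0.11. ALOX5AP, which presents arachidonic acid to 5-lipoxygenase, differed by 1.06 ± 0.12, FTH1, the ferritin heavy chain, by 0.89 ± 0.09 and KPNA2, an importin, by 0.88 ± 0.12. The smallest called differences were those of abundant genes. PTMA, prothymosin alpha, differed by 0.62 ± 0.09, the actin ACTG1 by 0.59 ± 0.07, TMSB4X, the actin-binding thymosin beta 4, by 0.41 ± 0.05 and ACTB by 0.31 ± 0.04. Levels of KPNA2, PTMA, TMSB4X and ACTB overlapped between the lines across plates and were higher in J-Lat A2 within each plate, whereas those of the other genes in this group did not overlap.

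Lower in J-Lat A2 were MYO7B, an unconventional myosin, with 70.3, 68.8 and 71.5 CPM against 297, 363 and 309 CPM (-2.20 ± 0.18, adjusted p = 0.00547), and PUDP, a pseudouridine phosphatase, with 46.1, 43.99 and 36.4 CPM against 207, 309 and 487 CPM (-2.90 ± 0.32, adjusted p = 0.0208). HS3ST3B1, a heparan sulfate sulfotransferase, differed by -1.91 ± 0.24, CAPG, an actin-capping protein, by -1.59 ± 0.22, AHI1, a ciliary protein, by -1.55 ± 0.21, GMPR2, a guanosine monophosphate reductase, by -1.44 ± 0.20 and UBE2L6, an enzyme of ISG15 conjugation, by -1.37 ± 0.18. For these 7 genes every J-Lat A2 plate lay below every Jurkat plate.

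**Figure D3:**
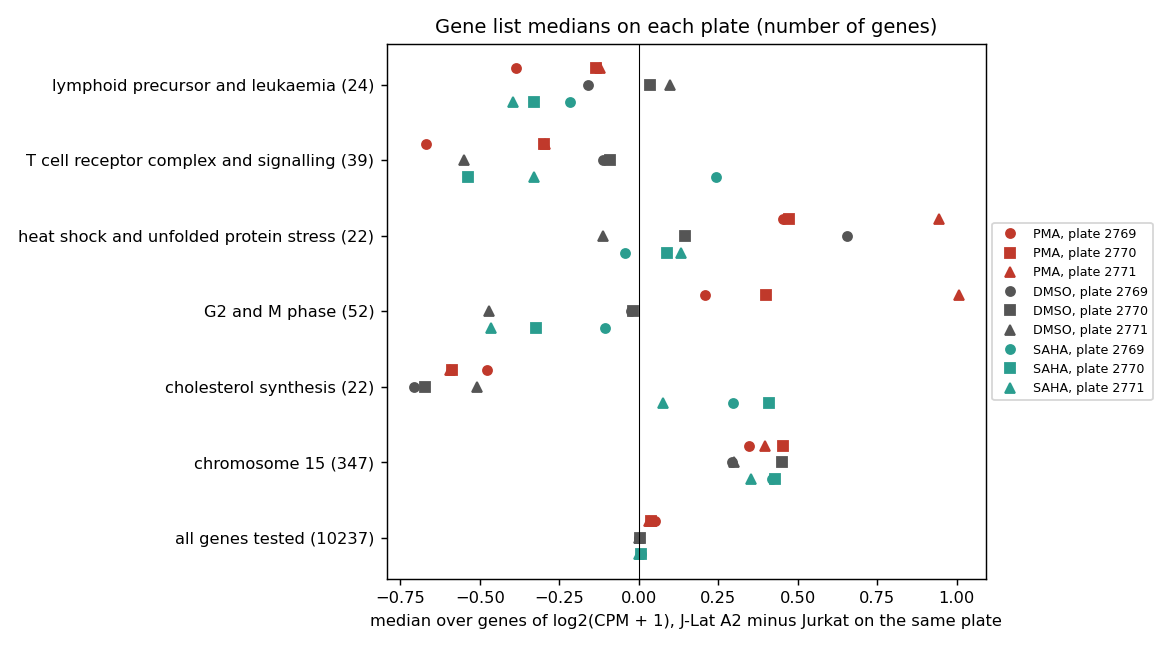
Median over the genes of a list of the log2(CPM + 1) difference between J-Lat A2 and Jurkat on the same plate, for 6 groups and for all genes, with the agent as colour and the plate as symbol. Under PMA the stress list lies above 0 and the cholesterol list below 0 on each of the 3 plates, and chromosome 15 lies above 0 on all plates under each agent.

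Few host factors of HIV transcription and restriction passed the test. HTATSF1, a cofactor described for Tat, measured 787, 671 and 697 CPM against 436, 282 and 243 CPM (1.21 ± 0.16, adjusted p = 0.0384), without overlap. It was the 1 called member of 26 tested genes of HIV transcription and P-TEFb, the kinase complex that Tat recruits (3.85%, beside 0.585% of all genes tested). The median of that list was 0.11, 0.40 without plate P2769 and -0.10 without plate P2770. DESeq2 called 2 of these genes higher and 0 lower. The P-TEFb subunit CCNT1 stood at 1.94 ± 0.74 and did not pass (adjusted p = 0.452). No gene was called among 32 provirus silencing factors, where 1 was higher and 1 lower at an unadjusted p under 0.05, nor among 19 restriction factors, where 1 was higher and 4 were lower. DESeq2 called 1 silencing factor lower, and 1 restriction factor higher and 3 lower. Of all 10259 genes tested it called 309 higher and 236 lower. HDAC2, a histone deacetylase, stood at 0.09 ± 0.13, and the restriction factor IFITM1 at -2.26 ± 0.35 (adjusted p = 0.0541).

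Some called genes lay next to each other. RBM48, a splicing factor of the minor spliceosome (ENSG00000127993.16, chromosome 7, 92528773 to 92538005), measured 53.7, 65.3 and 87.7 CPM against 596, 671 and 625 CPM (-3.22 ± 0.19, adjusted p = 0.00131). Its neighbour FAM133B (92560793 to 92590394) measured 202, 240 and 174.99 CPM against 450, 424 and 391 CPM (-1.04 ± 0.15, adjusted p = 0.0447). Both were lower in J-Lat A2 on all plates without overlap. In the same 1 Mb KRIT1 stood at -1.99 ± 0.49 and CDK6 at 0.16 ± 0.19, and neither passed. HTATSF1 and CD40LG are also neighbours, on the X chromosome (136497079 to 136512346 and 136648193 to 136660390), and differed in opposite directions. RCBTB2, a protein of RCC1 type repeats, measured 187.3, 193.8 and 295 CPM against 1568, 2087 and 2428 CPM (-3.18 ± 0.13, adjusted p = 0.000212). Its gene (chromosome 13, 48488959 to 48533256) overlaps that of the tumour suppressor RB1, which stood at -0.73 ± 0.14 (adjusted p = 0.098). The library kit does not mark strand, so reads of overlapping genes cannot be told apart, and 14 of the 59 called human genes overlap another feature, ADA, MTHFD2, NUSAP1, PRKCH, VRK2 and WARS1 among them.

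The same lines were then compared under DMSO and SAHA in a fit of all 18 sums. The line difference had 88 called genes of 11456 (0.768%) under DMSO and 93 (0.812%) under SAHA. Of the 59 human genes called under PMA, 52 had the same sign under DMSO (88.1%, against 58.1% of all genes tested) and 46 under SAHA (78%, against 57.4%). In 11 genes the difference was called with the same sign under both other agents. MAGEA4 was among them, with 115.2 to 277 CPM in J-Lat A2 under DMSO, 225 to 287 CPM under SAHA and no count in Jurkat under any agent. CD1E measured 6.59 to 20.97 CPM in J-Lat A2 and 2106 to 2226 CPM in Jurkat under DMSO, and 0 against 63.5 to 110.98 CPM under SAHA. ASNS differed by 4.13 and 2.39 and ASS1 by 2.95 and 3.20 under DMSO and SAHA. These differences between the lines were thus seen without PMA as well. Under DMSO CD69 measured 0 to 0.320 CPM in J-Lat A2, below the floor, and 0 to 45.8 CPM in Jurkat. Its difference under DMSO was called lower in J-Lat A2, the opposite sign to PMA, although these ranges overlap. TMSB4X was lower in J-Lat A2 under DMSO (-0.57, adjusted p = 0.0412), and its difference between PMA and DMSO was not called. ACTB (-0.82, adjusted p = 0.00149) and ACTG1 (-0.77, adjusted p = 0.0132) were lower in J-Lat A2 under SAHA. HIVmini measured 0 to 0.453 CPM in J-Lat A2 under DMSO, near the floor, and 9560 to 17911 CPM under SAHA.

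**Figure D4:**
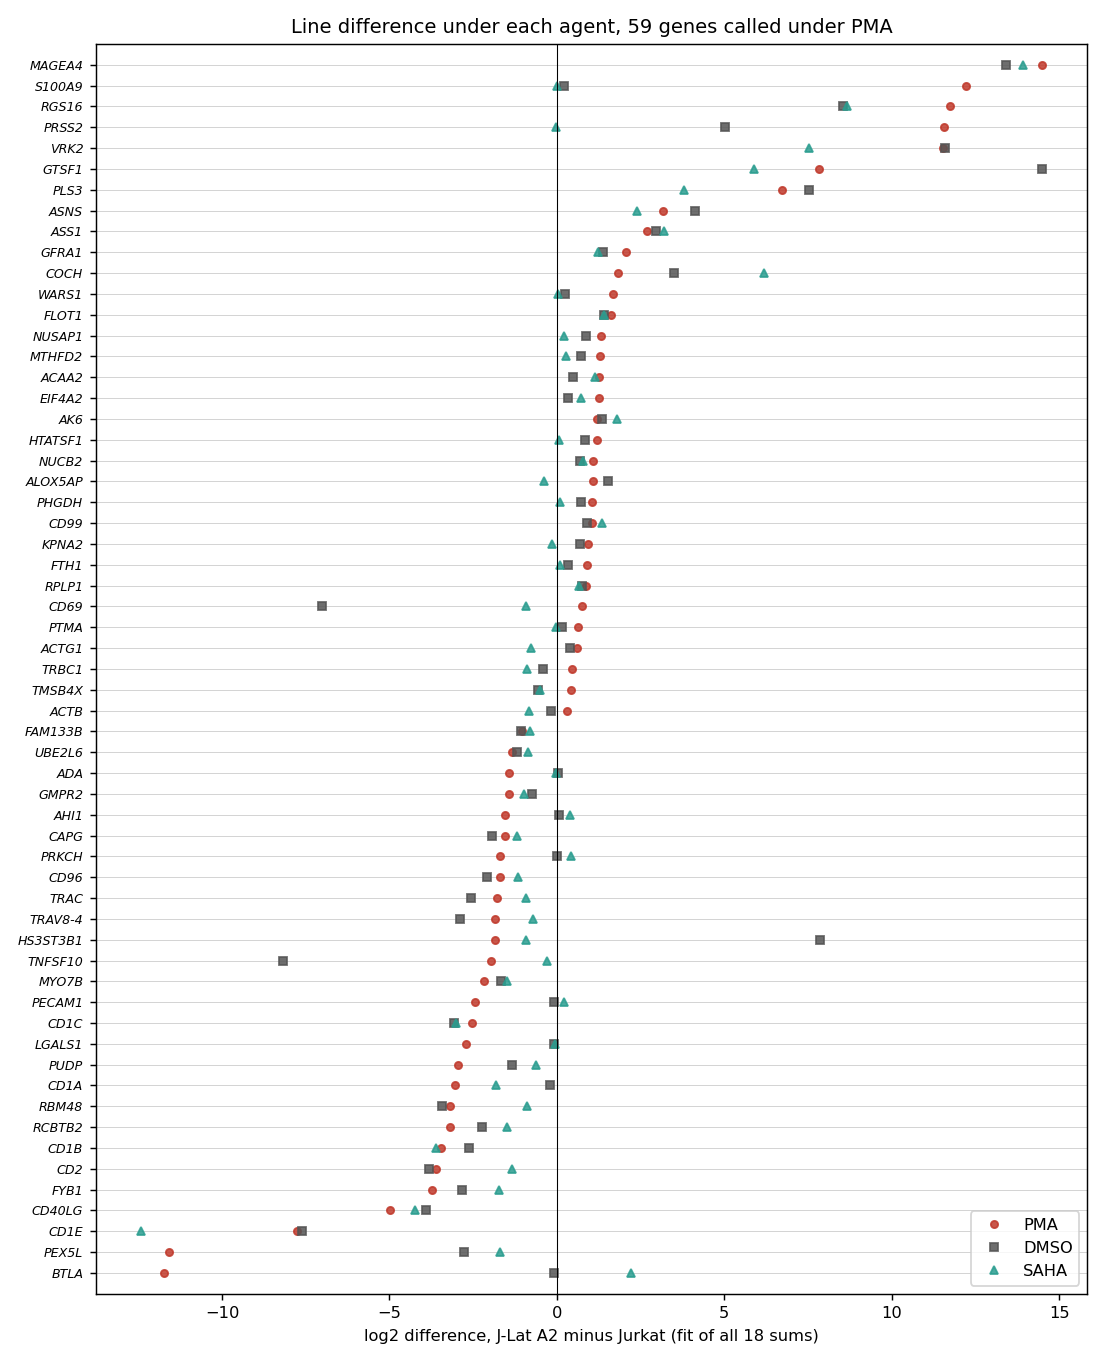
Log2 difference between J-Lat A2 and Jurkat under PMA (red circles), DMSO (grey squares) and SAHA (green triangles) for the 59 human genes called under PMA, from the fit of 18 sums. Of these genes 52 have the same sign under DMSO as under PMA and 46 under SAHA. Values beyond about 5 come from genes with few or no counts in 1 line, except CD1E under PMA (-7.76), which had reads in both lines.

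Whether the line difference itself differed between agents was tested as a difference of differences. Between PMA and DMSO 0 genes were called by edgeR (0% of 11456), with 755 at an unadjusted p under 0.05 and a lowest adjusted p of 0.0997, while DESeq2 called 82 more positive and 79 more negative under PMA, and limma with equal weight per cell 2 and 4. Between PMA and SAHA 11 genes were called (0.096%). WARS1 differed by 1.67 under PMA in this fit but by 0.25 ± 0.16 under DMSO and 0.04 ± 0.16 under SAHA. The difference from SAHA was called (1.62 ± 0.23, adjusted p = 0.00808) and that from DMSO was not (1.42 ± 0.23, adjusted p = 0.0997). Relative to DMSO, WARS1 changed with PMA by 1.04 in J-Lat A2 and by -0.38 in Jurkat. ADA measured 2747 to 3921 CPM in J-Lat A2 and 2949 to 3487 CPM in Jurkat under DMSO, which overlap. With PMA it changed by -3.19 and -1.73, and the difference from DMSO was not called (-1.46 ± 0.25, adjusted p = 0.0997). RBM48 differed by less under SAHA (-0.89) than under PMA, and that difference was called too (-2.30 ± 0.32, adjusted p = 0.00808). In Jurkat RBM48 measured 110.7 to 191.8 CPM with SAHA and 603 to 666 CPM with PMA, and in J-Lat A2 66.8 to 87.1 CPM and 54.02 to 87.5 CPM. The change between agents was therefore seen in the Jurkat levels. IDI1, an isomerase of sterol synthesis, was higher in J-Lat A2 with SAHA (1.14) and stood at -0.38 with PMA, a difference of -1.52 ± 0.22 (adjusted p = 0.00808).

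Chromosome 15 stood apart from the other chromosomes. It was picked after its values were seen, and its values are given without a test. Of its 349 tested genes 73.9% lay above 0 with a median of 0.46, although only RPLP1, a ribosomal stalk protein (0.86 ± 0.11), and NUSAP1 were called. For its genes with a mean of at least 20 CPM the median difference was 0.35, 0.47 and 0.40 on plates P2769, P2770 and P2771 with PMA. It was 0.43, 0.47 and 0.34 with DMSO and 0.46, 0.46 and 0.42 with SAHA. No other chromosome had a median above 0.154 on any plate with PMA, 0.176 with DMSO or 0.237 with SAHA. Along the chromosome the medians under PMA were 0.62 for 18 genes that start between 20 and 40 Mb, 0.45 for 78 genes up to 60 Mb, 0.34 for 70 genes up to 80 Mb and 0.30 for 29 genes up to 100 Mb. For the 3 genes that start beyond 100 Mb the median was 0.295. Each of these stretches thus had a median above 0, and the extent of the shift along the arm was not tested.

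**Figure D5:**
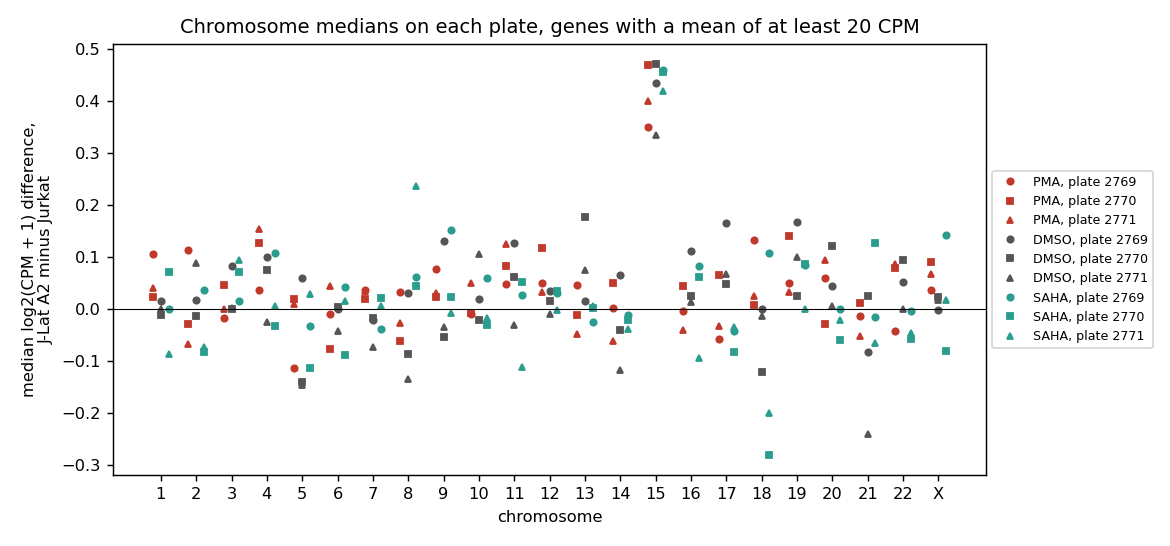
Median log2(CPM + 1) difference between J-Lat A2 and Jurkat for the genes of each chromosome with a mean of at least 20 CPM, 1 symbol per plate and agent. All 9 values of chromosome 15 lie between 0.335 and 0.472, and every other value lies below 0.24.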

How the data were processed

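The submitters' processing notes name Salmon 1.5.1, alevin and the genome build GRCh38.p13, with no role or order. The values deposited by the authors are expected counts per gene and well, estimated from reads and not scaled by depth, per the submitters' processing notes and the values themselves; 12.8% of the positive values were not whole within 1e-06. The library protocol has no molecular identifiers and does not mark strand, so intervals and floors cover counting error only. The annotation used for counting was not given in the sources used here. Each well was sorted to hold 1 cell, and doublets were not checked.

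Kept wells were summed per line and plate and rounded. Sums were tested in R 4.3.3 with edgeR 4.0.16 (TMM, filterByExpr, quasi-likelihood F test, two-sided, plate as block, 2 residual and 5.0 prior degrees of freedom), with Benjamini-Hochberg adjustment over all genes tested. Differences between agents came from 1 fit of 18 sums. DESeq2 1.42.0 and limma 3.58.1 (equal weight per cell, log2 of CPM plus 1) were alternatives, with others on scaling, filtering, wells, the block and left-out plates. The code was tested on simulated counts. Coordinates are from GENCODE 29, which gave them for 20187 of 20302 features, and promoter windows from RefSeq (GRCh38.p14), which held 48 of the 59 called human genes.

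The plate is shared by both lines by the labels. Deviations of same-plate sums correlated at 0.262, 0.143 and 0.093 (P2769, P2770, P2771) over 5918 genes, and those of different plates at -0.204 to 0.114, so the correlation does not set P2771 apart; the pairing rests on the labels. Named genes are HIVmini, per direction the 15 of greatest log2 difference that were called, averaged 20 CPM or more and pointed the same way on 3 plates, up to 4 called per list (or 2 of the highest level), and up to 5 called between PMA and SAHA. Others named were chosen after their values were seen. The members and lists were chosen with earlier results of these data known.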

Additional observations from a re-analysis of the deposited data

Results flagged for a closer look

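The line difference (J-Lat A2 minus Jurkat) differed between PMA and SAHA by the test of that difference in 11 genes (edgeR quasi-likelihood, adjusted p under 0.05, 3 plates per line and agent). It was more positive under PMA for the actins ACTB (1.14) and ACTG1 (1.37), the nucleosome-binding protein HMGN2 (1.42), PSAT1 of serine synthesis (1.38), WARS1 (1.62) and CTSG, the protease cathepsin G (2.73). It was more negative for ADA (-1.40), IDI1 (-1.52), INSIG1, which retains the sterol sensor in the endoplasmic reticulum (-1.01), and RBM48 (-2.30). For ERICH5 the fitted difference was -9.46, which depends on the prior count, because Jurkat with SAHA had no count there. ACTB measured 5729 to 8891 CPM in J-Lat A2 and 8596 to 17230 CPM in Jurkat with SAHA, but 21246 to 30502 and 16739 to 24029 CPM with PMA. ADA measured 373 to 682 and 447 to 514 CPM with SAHA, which overlap, and 319 to 411 and 881 to 1110 CPM with PMA, which do not. PSAT1 measured 391 to 494 and 420 to 550 CPM with SAHA, and 614 to 890 and 237 to 377 CPM with PMA. CTSG measured 14.3 to 26.9 and 46.3 to 63.1 CPM with SAHA, and 164.7 to 293 and 73.4 to 122.7 CPM with PMA. INSIG1 measured 1564 to 1908 and 1170 to 1492 CPM with SAHA, and 408 to 449 and 610 to 672 CPM with PMA. CTSG and INSIG1 thus had the lines in opposite order under the 2 agents, without overlap, whereas for PSAT1 the ranges overlapped with SAHA. Without plate P2770 no gene was called, and 3 and 2 were called without plates P2769 and P2771.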

How the results depend on the processing

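Under PMA, 33 genes were called higher and 27 lower. These counts became 49 and 44 with no filter on low counts, 309 and 236 with the DESeq2 Wald test, 71 and 82 with limma and equal weight per cell, 36 and 17 in the fit of 18 sums, and 16 and 23 (33 of the 60 genes shared) without the plate as the pairing block. With a plate left out they were 8 to 93 and 14 to 67: 14 and 17 without P2769, 93 and 67 without P2770, 8 and 14 without P2771. Between PMA and DMSO, 0 and 0 became 3 and 1 with no filter, 82 and 79 with DESeq2, 1 and 0 without the block, 2 and 4 with equal weights, and 0 to 1 and 0 to 0 with a plate left out. Between PMA and SAHA, 6 and 5 became 62 and 58 with DESeq2, 1 and 2 without the block, 9 and 11 with equal weights, and 0 to 2 and 0 to 1 with a plate left out. The cause of these changes was not tested. The share of J-Lat A2 cells with an HIVmini read was 67.3 to 73.6% with a plate left out and 67.5% thinned to 100000 counts. The chromosome 15 median, a value chosen after seeing the data, lay between 0.37 (equal weights) and 0.46. A floor of 3 counts per sum corresponded to up to 0.511 CPM in Jurkat under PMA, below which a level could not be told from 0.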
